A study of Homo sapiens and Mus musculus with 33 samples.

Results

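H3K4me3, histone H3 trimethylated at lysine 4, was mapped by ChIP-seq in colon epithelial cells of C57BL/6 mice and set beside the messenger RNA of the same tissue. All 27035 regions of the deposited H3K4me3 peak list are described, of 97639 regions in the peak lists of the series, with the 3 ChIP libraries, the 1 input library and the 3 RNA-seq libraries that were labelled as colon epithelium, 7 of the 33 samples. The mice were males kept under specific pathogen-free conditions, and neither a treatment nor a genetic change is given for these samples. For the ChIP, 3 colons were pooled to perform 3 experiments, while the same methods call the 3 H3K4me3 libraries biological replicates, so differences between them may be technical only, whereas each RNA library came from 1 mouse. The epithelium was shaken off the opened colon in EDTA and strained. Epithelial cell types of crypt and surface can be present together, and with them cells lying between epithelial cells. Which cell types entered, and in what shares, was not measured directly. In such bulk samples, fewer cells of a type and less RNA per cell cannot be told apart.

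H3K4me3 is written by the SET1 and MLL methyltransferase complexes, several of which are drawn to unmethylated CpG islands through CXXC-domain proteins, and it is the textbook mark of the start of transcribed genes. It lies on the nucleosomes around the transcription start site (TSS), usually further into the gene than ahead of it, and broad domains of the mark have been described at genes that define a cell type. In silent developmental genes with CpG islands it can occur together with the Polycomb mark H3K27me3. The colon epithelium holds crypt stem and dividing cells, absorptive colonocytes, mucus-secreting goblet cells and rarer enteroendocrine and tuft cells.

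A gene was said to have a TSS peak when a peak lay within 1 kb of any of its annotated TSS (GENCODE on GRCm38). Peaks are described by scaled reads, which are the reads in the peak multiplied by 1 factor per library to bring all libraries to the same total, by their width in bp, and by the log2 ratio of ChIP to input. Expression is given as counts scaled to the same total in every library (CPM) in RNA 1, 2 and 3, and as mean CPM per kb of exon where genes are compared with each other.

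The 250 bases ahead of the annotated TSS of 4 genes are shown as examples, chosen for a wide peak or for none. They are given 5′ to 3′ on the strand of the gene, from GRCm38, with every CG dinucleotide in capitals. Zbtb7a had the widest peak in the list and Cdx2 the widest among the colon transcription factors. No peak lay within 1 kb of Agr2 and Car1, although their RNA was abundant. Zbtb7a is at chr10:81136021-81136270 (plus strand), Cdx2 at chr5:147307271-147307520 (minus), Agr2 at chr12:35992657-35992906 (plus) and Car1 at chr3:14808366-14808615 (minus).
Zbtb7a: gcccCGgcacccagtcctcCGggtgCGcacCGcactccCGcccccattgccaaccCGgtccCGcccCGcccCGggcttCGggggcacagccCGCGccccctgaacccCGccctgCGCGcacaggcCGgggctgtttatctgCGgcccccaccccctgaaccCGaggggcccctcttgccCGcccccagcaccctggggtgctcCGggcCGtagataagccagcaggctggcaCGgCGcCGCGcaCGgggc
Cdx2: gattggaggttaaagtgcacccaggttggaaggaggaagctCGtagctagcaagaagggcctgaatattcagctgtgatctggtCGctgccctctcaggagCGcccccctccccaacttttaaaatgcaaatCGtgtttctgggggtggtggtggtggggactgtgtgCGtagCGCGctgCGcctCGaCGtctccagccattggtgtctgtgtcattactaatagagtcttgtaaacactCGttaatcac
Agr2: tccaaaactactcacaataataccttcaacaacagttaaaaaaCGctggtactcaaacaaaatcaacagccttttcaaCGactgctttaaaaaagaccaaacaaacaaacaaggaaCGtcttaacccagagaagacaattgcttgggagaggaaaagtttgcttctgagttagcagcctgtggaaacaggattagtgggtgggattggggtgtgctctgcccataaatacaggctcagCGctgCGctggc
Car1: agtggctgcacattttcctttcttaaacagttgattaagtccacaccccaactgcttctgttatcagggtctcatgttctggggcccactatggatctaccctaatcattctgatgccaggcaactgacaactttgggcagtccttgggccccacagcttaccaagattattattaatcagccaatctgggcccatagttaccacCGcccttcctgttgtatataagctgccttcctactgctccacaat
The Zbtb7a sequence holds 26 CG and that of Cdx2 11, against 5 for Agr2 and 1 for Car1. Other genes went the opposite way: Muc13 and Lypd8 had 0 CG there with peaks of 3300 and 2550 bp, and Rpl10 had 14 CG and no peak.

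The tissue label was checked against marker genes. The 10 epithelial markers (among them Epcam, Cdh1, the keratins Krt8, Krt18, Krt19 and Krt20, and Vil1) summed to 13471, 12113 and 11897 CPM in RNA 1, 2 and 3, and 9 of them had a TSS peak, Krt20 being the exception. The 5 immune markers summed to 24.9, 31.5 and 39.99 CPM and none had a peak, and the 5 stromal markers summed to 14.0, 12.4 and 13.8 CPM, with Pdgfra at 0 counts in all 3 mice and peaks at 3 of them. Endothelial markers (2 genes) stayed between 2.37 and 3.64 CPM in sum and neural markers (2 genes) between 0.618 and 1.40 CPM. The RNA libraries held 8166406 to 10707901 counts, so that a gene with 0 counts can still have a level of up to 0.367, 0.280 and 0.309 CPM in RNA 1, 2 and 3 (3 counts, counting error only).

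The 3 ChIP libraries ordered the peaks at gene starts alike but were not equally enriched. Over the 27035 peaks, log2 scaled reads correlated with Pearson's r of 0.933 between ChIP 1 and ChIP 2, 0.934 between ChIP 1 and ChIP 3 and 0.955 between ChIP 2 and ChIP 3. These coefficients run across peaks, which are not replicates, and each library also correlated with input (0.834, 0.821 and 0.815). As ratios to the shared input the correlations were 0.803, 0.806 and 0.883. Peaks at protein-coding TSS had the higher agreement, at 0.947, 0.945 and 0.966 between libraries and 0.779, 0.755 and 0.741 with input. In all other peaks the libraries correlated at 0.775, 0.779 and 0.826 and with input at 0.795, 0.789 and 0.798, so that there ChIP 1 correlated with input no less than with ChIP 2 and ChIP 3. ChIP 1, 2 and 3 had 1105419, 1523195 and 2711830 reads in peaks, and relative to the input's share the part of each library that fell in peaks was 3.30, 5.28 and 6.78 times higher. ChIP 1 was the lowest, ChIP 2 intermediate and ChIP 3 the highest in 66.3% of all peaks and in 98.2% of the strongest 25%. With the libraries brought to equal totals in peaks, the median SD of log2 reads over the 3 libraries was 0.446 in the weakest 25% of peaks and 0.139 in the strongest 25%.

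Named promoters show the same order. The highest mean scaled reads of any peak at a protein-coding TSS were at Tnrc18, a bromo-adjacent homology domain gene, at chr5:142812151-142824000 with 1304, 2201 and 2806 scaled reads in ChIP 1, 2 and 3 against 188 in input. Zbtb7a, a zinc finger repressor, followed at chr10:81133801-81147450 with 1289.8, 2124 and 2758 against 251. Setd1b, itself a catalytic subunit of an H3K4 methyltransferase complex, had 991, 1624 and 1975 scaled reads against 176 at chr5:123134401-123145350. At these genes every ChIP library stood several-fold above input, in the order of their enrichment. These genes were chosen for their peaks, and their RNA is given beside them: Tnrc18 had 80.1, 89.9 and 76.6 CPM, Zbtb7a 468, 511 and 448 CPM, and Setd1b 52.9, 71.5 and 52.1 CPM. In level per kb of exon, Zbtb7a ranked 691st, Tnrc18 6320th and Setd1b 7362nd among the 14914 genes detected.

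Some promoters had a wider gap between ChIP 1 and the other libraries. Among TSS peaks with a mean of at least 100 scaled reads, the largest SD between libraries was found at Parp4 (shared with Cenpj), Kif19a and Cep135, chosen by that SD, which is given as a description. The Parp4 peak had 36.8 scaled reads in ChIP 1, close to the 26 of input, but 150 and 156 in ChIP 2 and 3. The Kif19a peak had 43.7, 160 and 191 and the Cep135 peak 69.0, 182 and 328. In all 3, ChIP 1 was low. Of all 14453 peaks at protein-coding TSS, 58 were below input in ChIP 1, 4 in ChIP 2 and 1 in ChIP 3.

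**Figure D1:**
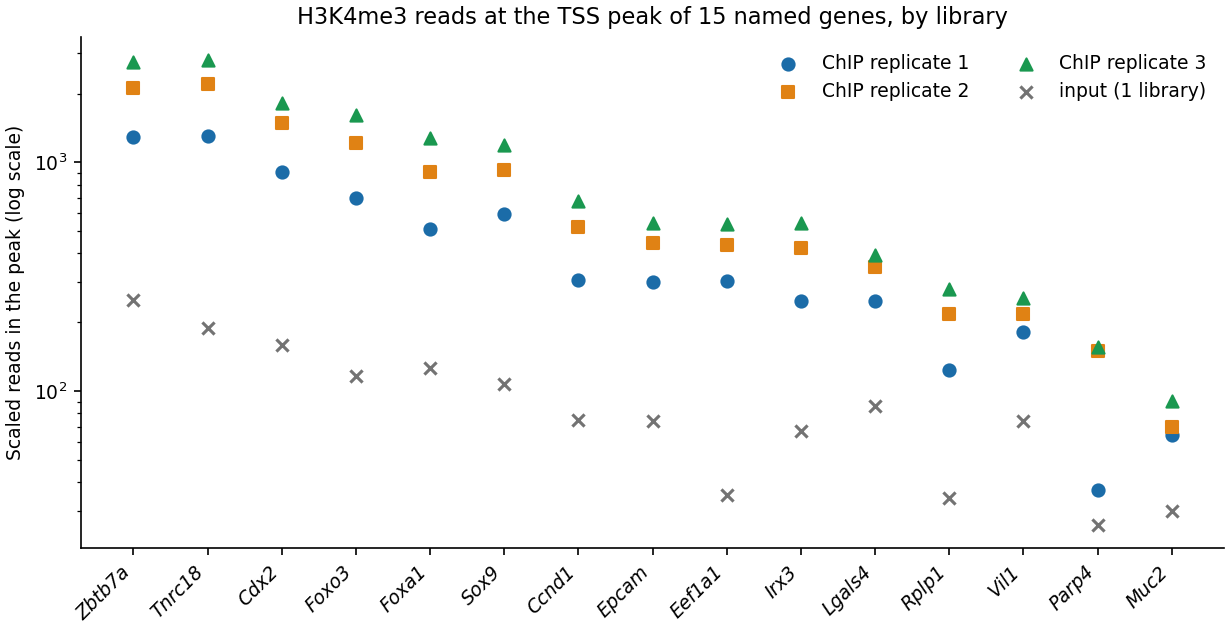
Scaled reads of named TSS peaks (log axis) for 15 genes in ChIP 1, ChIP 2, ChIP 3 and input, 1 point per library. Tnrc18, Zbtb7a and Cdx2 lie far above input in every ChIP library, while at Muc2 the ChIP points (64.4 to 90.7) lie closer to the 30 reads of input.

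H3K4me3 was concentrated at gene starts. Peaks within 1 kb of a protein-coding TSS numbered 14453, 53.5% of the list (95% Wilson interval 52.9 to 54.1). They held 81.0% of the scaled reads that lay in listed peaks. A further 1180 peaks lay at the TSS of other gene types, 8135 (30.1%) elsewhere inside protein-coding genes and 3267 (12.1%) outside genes. Peaks at protein-coding TSS had a median width of 1650 bp and 5.08 CG per 100 bases, against 900 bp and 2.38 for those inside genes and 750 bp and 2.44 for those outside. Their median log2 ratio to input was 1.77, 2.50 and 2.88 in ChIP 1, 2 and 3 (mean 2.39 ± 0.56, SD, n = 3), and that of all other peaks 1.04, 1.35 and 1.51 (1.30 ± 0.24). In each library the TSS peaks were the higher of both sets. Because the peaks were called on these libraries against this input, a positive ratio is a property of the list and was not tested.

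The presence of a peak followed expression in steps that flattened at the top. Of 20917 protein-coding genes matched between the annotation and the RNA table, 13680 had a TSS peak (65.4%). Among the 6003 genes with 0 counts in all 3 mice, 17.7% had one (16.8 to 18.7). The detected genes, split by CPM per kb into 4 classes of equal size, had a peak in 59.9% (58.3 to 61.4), 87.2% (86.0 to 88.2), 95.9% (95.2 to 96.5) and 95.4% (94.7 to 96.1) of cases from the lowest to the highest class. The share was lower again among the most expressed genes, at 92.9% of the highest 10 percent and 83.3% of the highest 1 percent, or 125 of 144 (86.8%) when genes of the mitochondrial genome were left out. Transcripts without a peak in that last class included mucus and secretory genes that are described below.

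Strength and width were also higher with expression. The median scaled reads of a TSS peak were 62.1, 85.6 and 100.3 in ChIP 1, 2 and 3 for genes not detected, and 166, 286 and 372 for the highest class, while the median input reads moved from 27 to 39. The median width grew from 1350 bp for genes not detected through 1500, 1650 and 1800 bp to 1950 bp in the highest class and 2250 bp in the highest 1 percent of genes, and the share of peaks of at least 3 kb from 3.67% to 12.3%. Density reached its level earlier: scaled reads per kb of peak were 59.0, 83.1, 127, 143 and 141 across the 5 classes. Across the 12617 detected genes with a peak, Spearman's rho with expression was 0.355 for reads, 0.315 for reads per kb and 0.268 for width. Among genes with a mean of at least 10 counts these values were 0.229, 0.154 and 0.221. Width and reads of a peak were themselves related (rho 0.793 over 13680 genes), so these are not independent measures.

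**Figure D2:**
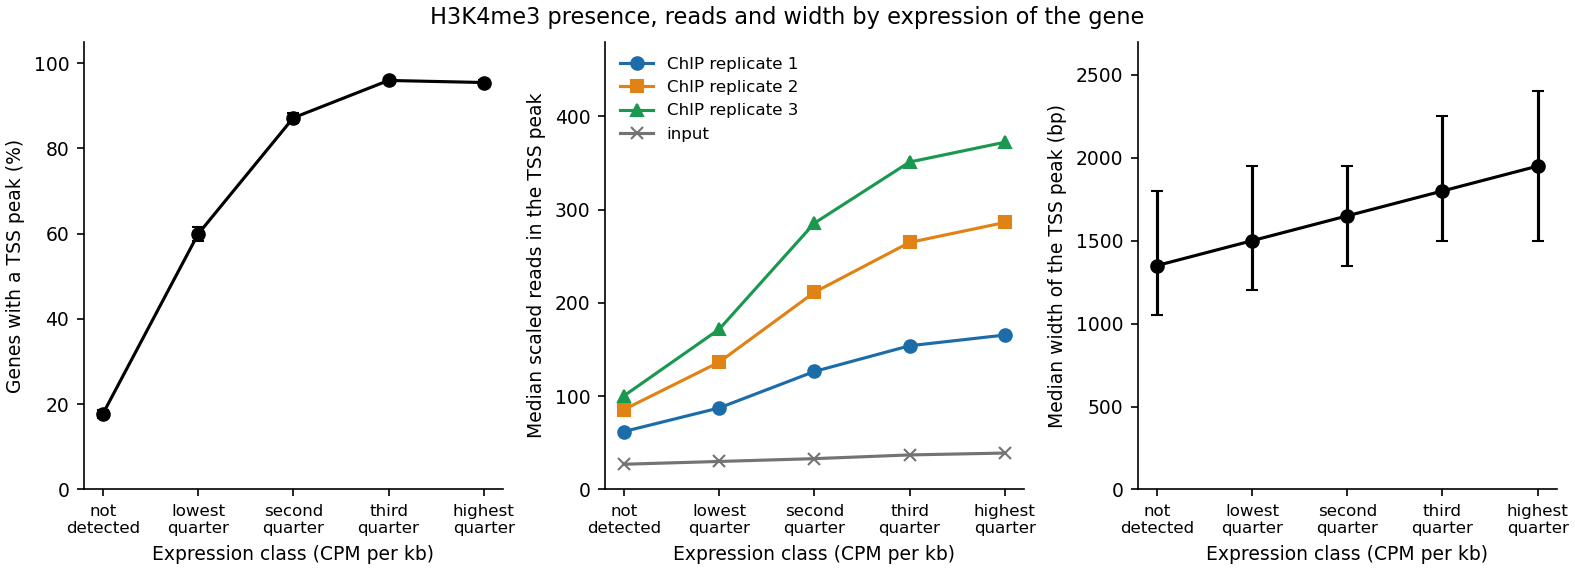
Share of genes with a TSS peak (percent, 95% Wilson interval), median scaled reads of the peak in each ChIP library and input, and median width (bp, bars for the middle 50 percent of genes), by expression class (4 equal classes of detected genes) from genes not detected to the highest class. The share levels off near 95% from the third class on, while width keeps growing to 1950 bp and the 3 ChIP lines stay in the order 1, 2, 3.

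Genes with and without a peak differed in promoter CG content at every level of expression. Of genes with 17 or more CG in the 250 bases ahead of the TSS, 86.9% of those not detected and 96.7% of those in the lowest class had a peak, and all 1744 genes of the highest class had one. Of genes with 0 to 2 CG, 3.21%, 22.2%, 46.5%, 66.5% and 54.5% had a peak from not detected to the highest class. Within each CG group the share was also higher for expressed than for silent genes. The 54.5% of highly expressed genes with 0 to 2 CG (47.6 to 61.2) lay below the 86.9% of silent genes with 17 or more CG (82.9 to 90.0), and these intervals did not overlap. CG content was related to expression itself (rho 0.259 over 14901 genes) and to peak width (0.358 over 13680), and its part in the relation of peaks to expression was not tested beyond these groups.

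**Figure D3:**
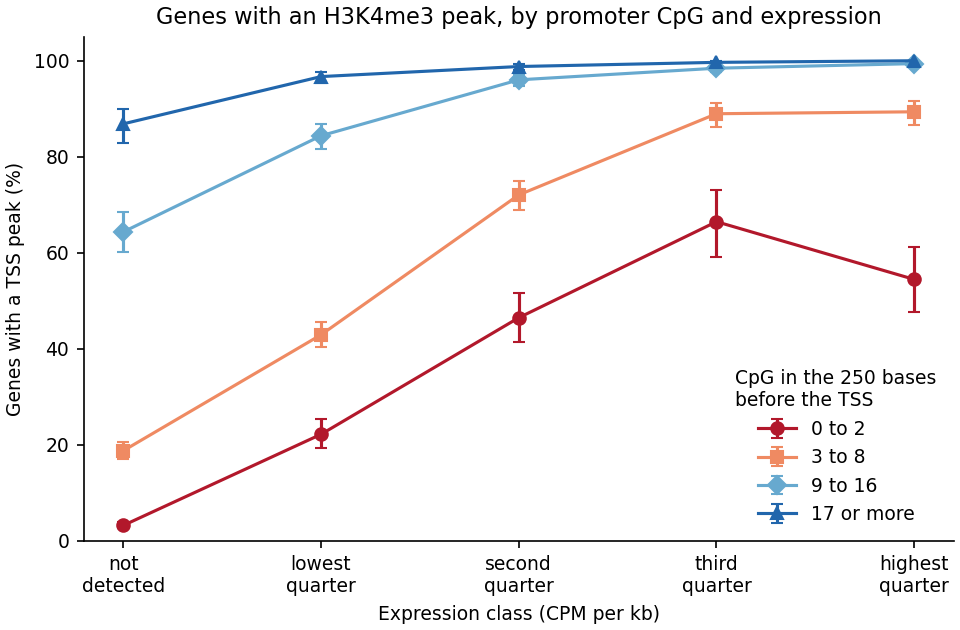
Share of genes with a TSS peak (percent, 95% Wilson interval) by expression class, with 1 line per group of CG count in the 250 bases ahead of the TSS. The line for 17 or more CG starts at 86.9% and ends at 100%, and the line for 0 to 2 CG starts at 3.21% and ends at 54.5%.

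The width of a peak lay mostly inside the gene. For 11155 genes whose peak covered the TSS of no other protein-coding gene, the median reach was 1066 bp into the gene and 518 bp ahead of the TSS, and the inner reach was the longer in 89.8%. From genes not detected to the highest class the inner reach went from 857 to 1237 bp and the outer from 432 to 540 bp. With expression, the inner reach had a rho of 0.298 and the outer 0.086 over the 10324 detected genes among them. The outer value was 0.035 among genes with a mean of at least 10 counts, 0.039 with the higher-ratio 50% of peaks and 0.147 without division by exon length. In peaks of at least 3 kb the inner reach was 2570 bp and the outer 944 bp.

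**Figure D4:**
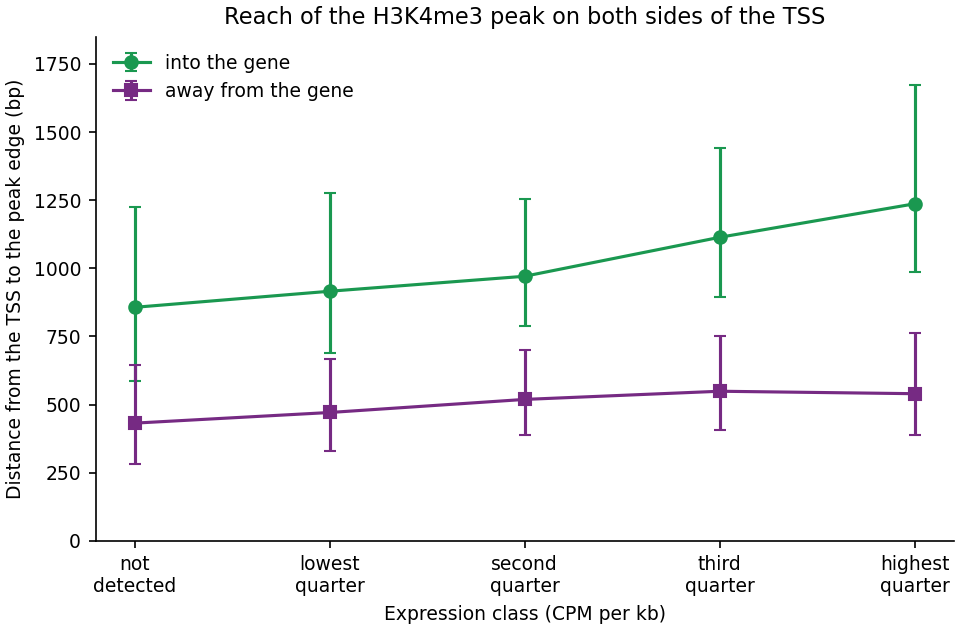
Median distance (bp) from the TSS to the peak edge ahead of the gene and inside it, by expression class, with bars for the middle 50 percent of genes. The inner edge moves from 857 to 1237 bp, the outer edge from 432 to 540 bp.

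Peaks of extreme width lay at genes of several kinds. Beside Zbtb7a (13650 bp), Tnrc18 (11850 bp) and Setd1b (10950 bp), the 5 widest included Cant1, a Golgi nucleotidase (9300 bp, chr11:118410451-118419750), and a 9000 bp region at chr7:45717151-45726150 that held the starts of Sphk2, Rpl18, Fam83e and Spaca4. Smad7, the feedback inhibitor of TGF-beta signalling, had 8700 bp, Brd2, a bromodomain reader of acetylated histones, 7650 bp, and the insulin receptor substrate Irs2 7200 bp. The Notch pathway genes Lfng, a fringe glycosyltransferase, and Jag2, a ligand, each had 7200 bp. In all, 1063 genes had a peak of at least 3 kb. Their median expression was 11.1 CPM per kb, compared with 8.39 for genes with peaks of 2 to 3 kb, 4.52 for 1 to 2 kb and 0.115 for under 1 kb, and 41.3% of them were in the highest class.

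Transcription factors of the colon epithelium had wide peaks as a group. All 27 of the list had a TSS peak, beside 65.4% of all genes and 95.4% of the highest expression class. Their median width was 3750 bp beside 1650 bp over all genes, and 20 were at least 3 kb wide, beside 7.77% of all genes with a peak. Cdx2, the caudal homeobox factor that specifies intestine, had 8550 bp at chr5:147299101-147307650 with 908, 1489.9 and 1821 scaled reads against 159 in input, and 508, 493 and 411 CPM. Foxa1, a pioneer factor, had 6450 bp with 510.4, 909 and 1281 against 126. Elf3, an epithelial ETS factor, had 6300 bp, Klf4, a factor of differentiated surface cells, 5400 bp and Gata6 4650 bp. The ChIP values of Cdx2 and Foxa1 were all over 4 times the input. Gata6, at 13.2 CPM per kb, had a wider peak than the nuclear receptor gene Hnf4a, at 177 CPM per kb (3900 bp). Not every member was wide. Hnf4g had 1200 bp with 71.3, 104 and 145 scaled reads against 35, and the bile acid receptor Nr1h4 had 1500 bp with 29.9, 82.9 and 79.1 against 32, so that ChIP 1 did not exceed input there.

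Structural genes of epithelia had wide peaks as well. A list of 10 of them, which overlaps the markers above but lacks Krt20, had a median of 3675 bp. The galectin gene Lgals4 had 4500 bp with 248, 348 and 395 scaled reads against 86, and 3617, 3362 and 3610 CPM. Krt19 and the tight junction gene Cldn3 had 4350 bp each, Krt8 4200 bp and the adhesion gene Epcam 3750 bp with 301, 444 and 542 against 74. Density was lower here than in the transcription factors, at a median of 102 scaled reads per kb against 139, although the median expression was 516 against 37.4 CPM per kb.

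The 17 genes of crypt stem cells and Wnt signalling all had a peak, beside 84.6% of all detected genes, with a median width of 2550 bp. Sox9, a progenitor factor, had 5550 bp at chr11:112780651-112786200 with 593, 926 and 1186 scaled reads against 107, and the Wnt target Myc 4800 bp with 333, 671 and 984 against 95. The Wnt feedback gene Axin2 had 4650 bp and the crypt receptor Ephb2 4500 bp. Lgr5, the marker of crypt base stem cells, had 2100 bp with 147, 262 and 289 against 42, at 24.1, 21.8 and 16.9 CPM, and Cd44 1500 bp. The peaks of Sox9, Myc and Lgr5 exceeded input in every library, with ChIP 1 the lowest. All 22 cell cycle genes had a peak too, beside the same 84.6% of detected genes. Of the 22, 13 were in the highest expression class, where 95.4% of all genes had a peak. The promoters of the list had a median of 15 CG, and of all genes with 9 to 16 CG 92.2% had a peak. The median width of the list was 1575 bp: the cyclin gene Ccnd1 had 3300 bp, the proliferation marker Mki67 1800 bp and the replication helicase gene Mcm3 1050 bp.

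Among genes of differentiated cells, 15 of 25 absorptive colonocyte genes, 10 of 17 goblet cell genes and 12 of 20 innate defence genes had a peak. These shares (60%, 58.8% and 60%) were near the 65.4% of all genes, and below the 84.6% of detected genes. When the 50% of peaks with the higher ratio to input were kept, they were 44%, 35.3% and 45%, beside 55.9% of all genes and 75.1% of detected genes. The promoters of these lists had a median of 4, 5 and 3 CG. Of all genes with 3 to 8 CG, 50.1% had a peak, and 89.4% of those in the highest class. Of all genes with 0 to 2 CG, 13.6% had a peak, and 54.5% of those in the highest class. The peaks of the lists had median widths of 1650, 1875 and 2025 bp. Within these lists, 43 genes were in the highest expression class and 19 of the 43 had no peak, beside 170 of all 3728 genes of that class, of which 95.4% had a peak. All 19 colon transcription factors of that class had one. The goblet cell master regulator Atoh1 had 2550 bp with 218, 257 and 436 scaled reads against 67, and Gfi1, another secretory lineage factor, 4200 bp with 159, 383 and 474 against 75. Muc2, the main gel-forming mucin of the colon, had 6746, 12351 and 9745 CPM, and a 1500 bp peak at chr7:141693301-141694800 with 64.4, 69.5 and 90.7 scaled reads against 30. Zg16, a mucus lectin, had 750 bp with 39.1, 32.1 and 32.8 against 16, and Pigr, the receptor that carries IgA across the epithelium, 1950 bp with 106, 107 and 106 against 33. At Zg16 and Pigr the ChIP libraries did not show the order 1, 2, 3 seen at strong peaks.

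Several of the most abundant transcripts had no TSS peak at all. Agr2, a disulfide isomerase needed for mucin folding, had 2923, 3649 and 3062 CPM, and the nearest peak lay 48494 bp from its start. The trefoil peptide gene Tff3 had 793, 622 and 635 CPM and the protease inhibitor gene Spink4 817, 1108 and 1355 CPM. Among colonocyte genes the carbonic anhydrase Car1 had 1427, 881 and 1149 CPM and the membrane mucin Muc3 1078, 832 and 614 CPM. The kallikrein Klk1 (2240.0, 2466 and 2544 CPM) and the mucosal pentraxin Mptx1 (1428, 997 and 3859 CPM) were also without a peak. Krt20, the keratin of surface cells, had its nearest peak at 1650 bp, just beyond the 1 kb window. The list gives no reads outside peaks, so whether weak H3K4me3 lay at these starts was not analysed here.

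In all, 170 genes of the highest class had no peak, 7 of them mitochondrial and 163 nuclear. Their promoters had a median of 2 CG, compared with 16 for genes of that class with a peak. Another promoter mark measured in the same tissue, H3K18cr (histone H3 crotonylated at lysine 18), had a TSS peak at 88 of the 163 (54.0%), Agr2, Klk1 and Car1 among them but not Tff3, Spink4, Muc3 or Mptx1, and at 3421 of the 3558 with an H3K4me3 peak (96.1%). For some members counting is uncertain: the Ugt1a genes share their last exons and had nearly equal counts, and Rpl10, without a peak at 142, 94.3 and 179 CPM, has processed copies that can share its reads.

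Enteroendocrine and tuft genes, which mark rare cells, had a peak in 9 of 20 cases (45%) with a median width of 1200 bp. All 20 were detected, and of all detected genes 84.6% had a peak. With the higher-ratio 50% of peaks, 10% of the list had one, beside 75.1% of all detected genes. Insm1, an endocrine zinc finger factor, had the widest at 3600 bp with 218, 324 and 550 scaled reads against 62, although its RNA was at 7.84, 7.66 and 6.60 CPM. The granule protein gene Chga had 1200 bp with 39.1, 69.5 and 81.0 against 26, at 136, 142 and 133 CPM. The peptide hormone genes Pyy (74.6, 58.7 and 61.0 CPM) and Gcg (110.4, 112 and 112 CPM) had none. Insm1 thus had more ChIP reads than Chga in each library and less RNA in each mouse. In the innate defence list, the inflammasome sensor Nlrp6 had 3600 bp with 338, 535 and 638 against 52, while Ang4 (14.4, 73.3 and 267 CPM) and the lectin Reg3b (33.7, 335 and 29.3 CPM) had no peak and varied widely between mice.

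Among housekeeping genes, a peak was present at 77 of 78 cytosolic ribosomal protein genes, at all 44 oxidative phosphorylation genes and at all 31 proteasome genes. Most of them were in the highest expression class, where 95.4% of all genes had a peak. Each list had a median width of 1650 bp, equal to that of all genes and below the 1950 bp of that class. Their median density of 132 to 143 scaled reads per kb lay around the 141 of that class. Eef1a1, the elongation factor of highest RNA level, had 2400 bp with 303, 436 and 538 scaled reads against 35, at 6296, 6383 and 6956 CPM. The proteasome subunit Psma7, whose peak also held the start of Ss18l1, had 2400 bp with 435, 805 and 982 against 43. All 30 tumour suppressor genes had a peak and 29 were detected, beside a peak at 65.4% of all genes and 84.6% of detected genes. Their promoters had a median of 22 CG, and of all genes with 17 or more CG 98.4% had a peak. The list had a median width of 2175 bp and 167 scaled reads per kb. Of these genes, 9 had a peak of at least 3 kb, beside 7.77% of all genes with a peak. Among them Foxo3 had 5700 bp with 699, 1217 and 1616 against 117 and the chromatin remodeller Arid1a 3600 bp with 710.4, 1244 and 1649 against 59.

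**Figure D5:**
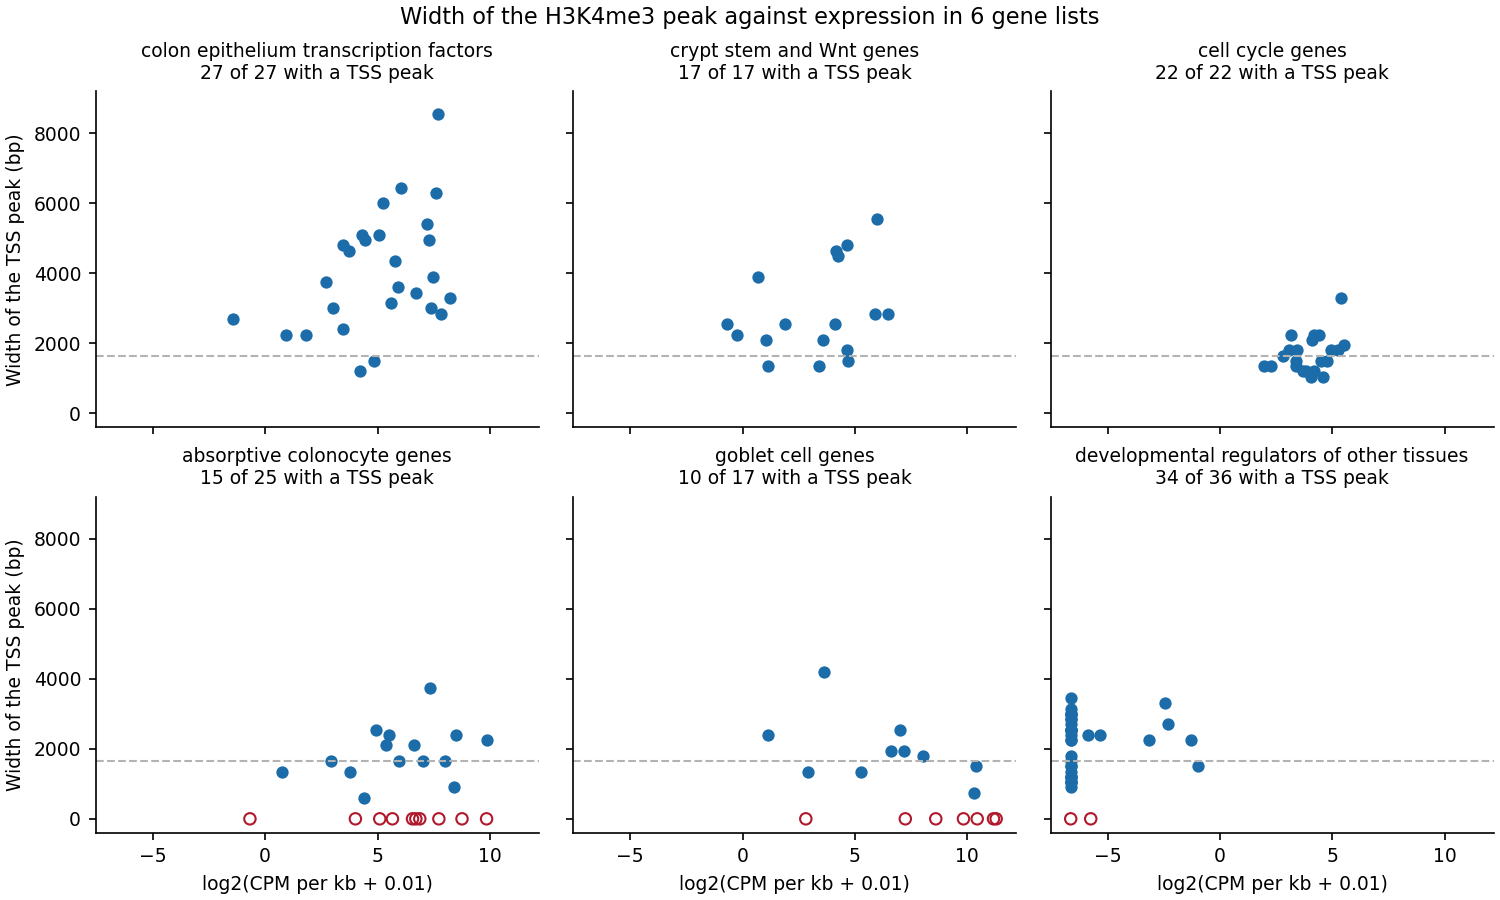
Width of the TSS peak (bp) of each list member against its expression, log2(CPM per kb + 0.01), for 6 of the lists, with open red circles at 0 for members without a peak and a dashed line at the median of all genes (1650 bp). Colon transcription factors lie mostly above the line and cell cycle genes around it. Absorptive and goblet genes of high expression are split between peaks on both sides of the line and 0, and developmental regulators stand at the left with peaks.

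Silent genes with a peak numbered 1063, and 975 of them shared it with no detected gene. These 975 peaks had a median width of 1350 bp and 79.5 scaled reads, and their promoters had a median of 11 CG against 1 for silent genes without a peak. Of 36 regulators of the development of other tissues, 34 had a peak and 8 were detected in RNA, beside a peak at 17.7% of genes not detected and 65.4% of all genes. Their promoters had a median of 14 CG, and of genes not detected with 9 to 16 CG 64.4% had a peak. Their peaks had a median width of 2325 bp, beside 1350 bp for genes not detected and 1650 bp over all detected genes. At 64.2 scaled reads per kb, these peaks were close to the 59.0 of genes not detected and below the 124 over all genes. The homeobox gene Irx3 had 3450 bp with 248, 423 and 542 scaled reads against 67 and 0 counts in all mice. The pluripotency and neural factor Sox2 had 3000 bp with 145, 209 and 266 against 71, also at 0 counts. Pax6, an eye and endocrine factor, had 3300 bp with 131, 209 and 233 against 65 at 1.71, 1.40 and 2.99 CPM. At all 3 the ChIP libraries were above input. H3K18cr had a TSS peak at 4 of the 36 (11.1%), beside 51.7% of all genes and 2.33% of those not detected. With the higher-ratio 50% of peaks, 50% of the list had a peak, beside 55.9% of all genes and 8.26% of those not detected. The muscle factor gene Myf5 was among the members without a peak.

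The 5 silent genes with the strongest peaks mostly shared them, while of all 1063 silent genes with a peak 88 shared it with a detected gene. The 5 genes without counts whose peaks had most reads were A830031A19Rik, Spaca4, E130114P18Rik, Egr3 and Agrp, and 4 of these peaks also lay at the TSS of another gene (Bcl11a, Sphk2 and Rpl18, Nfia, and Ctcf). E130114P18Rik and Agrp were assigned through another annotated start. Their principal TSS, at chr4:97584629 and chr8:105568298, lay outside the peaks at chr4:97776451-97779300 and chr8:105635551-105638100. Egr3, an immediate early transcription factor, was alone in its 6600 bp peak at chr14:70074301-70080900 with 368, 522 and 669 scaled reads against 111. Cdkn2a, a cell cycle inhibitor gene of the tumour suppressor list, also had 0 counts in every mouse and a 2100 bp peak with 214, 415 and 567 against 39.

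Among genes that end the differentiation of other tissues, 15 of 29 were detected and 8 had a peak (27.6%), beside 65.4% of all genes. All 19 immune and 17 of 18 stromal, endothelial and neural genes were detected, and a peak was present at 2 of the 19 and 9 of the 18 (10.5% and 50%), beside 84.6% of detected genes. With the higher-ratio 50% of peaks these shares were 3.45%, 5.26% and 27.8%, beside 55.9% of all genes and 75.1% of detected genes. Gad1, the GABA-synthesising enzyme of neurons, had 2100 bp with 87.4, 110 and 92.6 scaled reads against 45. Coro1a, a leukocyte actin regulator, had 1800 bp with 82.8, 107 and 154 against 33 at 8.33, 11.7 and 16.3 CPM. Whether the Coro1a peak came from immune cells was not tested. The stromal receptor Pdgfra had 2250 bp with 80.5, 112 and 201 against 49 at 0 counts.

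The spread of RNA between mice was also set against peak width. The 9837 genes with a peak and a mean of at least 50 counts were split anew into 4 expression classes of equal size. The SD of log2 CPM over the 3 mice had medians near 0.20 in the lowest expression class and 0.09 in the highest. Peaks were split by width into 4 groups over all these genes together, so that the widest group (from 2250 bp, with ties on both sides of the limit) held 361 genes of the lowest class and 985 of the highest. Within each class, the median of the widest group exceeded that of the narrowest by 0.0064, 0.016, 0.0043 and 0.0036. The largest, 0.016, was about as large as the step between neighbouring classes at the upper end. Their mean, 0.0077, was 0.0038 without RNA 1, 0.0071 without RNA 2 and 0.0027 without RNA 3.

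Where H3K4me3 was wide, H3K18cr was usually called too. An H3K18cr peak overlapped 10028 of the 14453 TSS peaks. The share was 26.0% under 1 kb, 69.4% at 1 to 2 kb, 83.4% at 2 to 3 kb and 87.1% at 3 kb or more. Wider peaks have more bases that can overlap. They also had more scaled reads, with medians of 41.7 under 1 kb and 493 at 3 kb or more. These were not separated from width. Over the 10028 TSS peaks that overlapped an H3K18cr peak, the widths correlated with a rho of 0.483, across peaks of the same genome that share its CG content and mappability. Of the named genes, Cdx2, Zbtb7a, Sox9 and Muc2 had both marks and Lgr5, Insm1 and Egr3 only H3K4me3.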

How the data were processed

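H3K4me3 ChIP-seq (3 ChIP libraries, 1 input) and poly(A) RNA-seq (3 mice) of colon epithelium were taken from the deposited tables. According to the study's methods and the submitters' processing notes, the authors trimmed reads (Trim Galore 0.4.2), mapped ChIP reads to GRCm38 with Bowtie2 (2.2.5 in the notes, another version in the methods), dropped duplicate and ambiguously mapped reads and called 1 peak list for all ChIP libraries against input with MACS in SeqMonk. The deposited H3K4me3 signal is the read count per peak multiplied by 1 factor per library (2.30, 2.67 and 1.93 for ChIP 1 to 3, 1 for input). All values divided by these factors were within 0.01 of a whole number, so depth in peaks is known, but reads outside peaks are not in the table. The deposited RNA table holds raw read counts per gene; TopHat2 2.0.12 is in the notes and another aligner in the methods, and whether counting used the strand of the directional kit is not given in the sources used here, so reads of overlapping antisense genes may be mixed.

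Peaks of any width fall on a 150 bp grid, which limits widths. A peak was assigned to each protein-coding gene with a TSS within 1000 bp, and a gene took its peak with most reads. Of 21866 annotated genes 20917 were matched (18401 by identifier, 2516 by symbol). Counts were divided by library total and exon length. A gene with at least 1 count was detected. The log2 ratio used a pseudocount of 1 scaled read. Intervals of shares are 95% Wilson intervals and cover counting error only. No test was run, since there is 1 condition and the peaks were selected on these libraries. Promoter sequences and CG counts came from the GRCm38 genome at the principal annotated TSS. Of the list members, Rpl24, Atp5o and Amy2b found no match. Genes were named as the strongest, widest, most expressed with and without a peak, strongest silent and most variable peaks, as the 2 widest and up to 2 most expressed unmarked members of each list and as tissue markers; Chga, Elf3, Klf4, Gata6, Hnf4a, Hnf4g, Nr1h4, Axin2, Ephb2, Cd44, Mki67, Mcm3, Zg16, Pigr, Arid1a, Sox2, Cdkn2a, Smad7, Irs2, Lfng, Jag2 and the genes near peaks away from starts (Ppara, Kdm6b, Dleu2) were added after their values were seen. Some genes the rule names are not reported here. The members and lists were chosen with earlier results of these data known. Replicates were compared for duplication: the chi-square per peak between ChIP libraries was 1.51, 2.46 and 1.42, so none was a copy. Alternatives were other TSS windows, pseudocounts, filters, normalizations (edgeR 4.0.16 TMM over peaks and over genes, and DESeq2 1.42.0 size factors over genes) and leaving out each library. Software was Python 3.11.15 with numpy 2.4.6, pandas 2.3.3, scipy 1.17.1, pysam 0.24.0 and matplotlib 3.10.9, and R 4.3.3.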

Additional observations from a re-analysis of the deposited data

How the results depend on the processing

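No paired analysis was possible because the 7 libraries form 1 condition and no fit between groups was made. The replicate correlation, the ratios to input, the shares with a peak by expression class and by gene list, the relations of reads, width and reach to expression and the spread between mice were recomputed. None changed sign, except the ratio of other peaks. With TMM factors over peaks, the mean log2 ratio to input was 0.45 for TSS peaks and -0.56 for other peaks, by construction, since TMM centres the libraries on the peaks themselves. The share of genes with a peak moved with the window: with the TSS inside the peak it was 15.4% of genes not detected, 56.0% of the lowest expression class and 94.4% of the highest, and within 2000 bp 19.0% and 61.8% of the first classes. Among the higher-ratio 50 percent of peaks it was 8.26%, 41.6% and 90.2%, and Spearman's rho with expression was 0.287 (reads), 0.223 (width), 0.231 (reads per kb), 0.266 (inner reach) and 0.039 (outer reach). With CPM not divided by length the shares were 57.2% and 97.0%, and the rho 0.446, 0.334, 0.401, 0.368 and 0.147. With a mean of at least 10 counts the lowest expression class had a peak in 81.2%, and the rho were 0.229, 0.221, 0.154, 0.278 and 0.035. With the higher-ratio peaks the share with a peak fell most in developmental regulators (94.4% to 50%), enteroendocrine and tuft (45% to 10%), goblet (58.8% to 35.3%), stromal, endothelial and neural (50% to 27.8%) and terminal genes of other tissues (27.6% to 3.45%). Reads as ratio to input gave 0.285 and summed over TSS peaks 0.343. Replicate correlation of reads was 0.803 as ratio to input and 0.786 per kb. Chosen after seeing the data, TSS within 100 bp of each other gave 0.302 (inner) and 0.077 (outer), and no TSS of another gene type in the peak 0.302 and 0.079.

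Leaving out 1 library at a time, the lowest replicate correlation was 0.933 to 0.955 (highest without ChIP 1), the log2 ratio of TSS peaks 2.14 to 2.69, and rho 0.349 to 0.360 for reads, 0.306 to 0.324 for reads per kb and 0.266 to 0.269 for width. The mean difference in spread between widest and narrowest peaks, 0.0077 with 3 mice, was 0.0038 without RNA 1, 0.0071 without RNA 2 and 0.0027 without RNA 3. The peak list could not be recalled without ChIP 1, and at a median of 26 input reads per peak, weak peaks stay uncertain.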

Other observations

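Gene families picked by their name prefix, after the tables were seen, spanned nearly the whole range. Olfactory receptors had a TSS peak at 8 of 1096 genes (0.730%), vomeronasal receptors at 1 of 324, keratin-associated proteins at 3 of 51 and defensins at 0 of 64, beside 65.4% over all genes. In this order 6, 3, 0 and 4 genes were detected, and each family had a median of 1 promoter CG. Of all genes not detected 17.7% had a peak, and of those with 0 to 2 CG 3.21%. At the other end stood the mitochondrial ribosomal proteins, with a peak at 78 of 78 and a median width of 1500 bp. All 78 were detected, and of all detected genes 84.6% had a peak. Hox genes, which hold the positional identity of a tissue, had peaks at 34 of 39 with a median width of 2250 bp. Zinc finger genes of the Zfp series had narrower peaks (304 of 388, 1350 bp). Solute carriers were marked at 275 of 368 and cytochrome P450 genes at 23 of 96. Histone genes had a peak at 50 of 67, with 52.9 scaled reads per kb, but their transcripts mostly lack a poly(A) tail, so their RNA was little measured here.

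The X chromosome is present in 1 copy in males. Its 395 TSS peaks had 46.0, 75.3 and 99.7 scaled reads per kb in ChIP 1, 2 and 3, against 71.9, 119 and 157 on autosomes. Input was lower as well, at 11.1 against 20 reads per kb, and the log2 ratio to input was 1.91, 2.67 and 3.07 on X against 1.77, 2.50 and 2.88. Of X genes, 43.2% had a peak, against 66.8% of autosomal genes, and of those detected 73.8% against 85.1%.

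Some strong peaks lay away from protein-coding starts. A region at chr17:39842851-39849300 had 13990, 18818 and 22912 scaled reads, but also 5336 in input. At chr15:85669501-85674750, 60233 bp from Ppara and outside genes, 549, 1150 and 1452 scaled reads stood against 109. A region within Kdm6b, which encodes an H3K27 demethylase, had 506, 859 and 1103 against 94 (chr11:69407851-69412350), and one at the long non-coding gene Dleu2 379, 695 and 1016 against 40.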
